A study of Mus musculus with 9 samples.

Results

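The transcripts described here come from the 2 loci of the mouse genome that each encode a copy of *miR-1* followed by a copy of *miR-133a*. The first, here called the *miR-1-1* locus, also encodes *miR-133a-2* and is represented by *Mir1a-1hg*, the gene of the host transcript, and by *Mir1a-1* and *Mir133a-2*, the genes of its precursors. The second, here called the *miR-1-2* locus, also encodes *miR-133a-1* and is represented by *Mir1a-2*, by *Mir1b*, which is annotated on the opposite strand over *Mir1a-2*, and by *Mir133a-1*. Every probe set whose gene symbol entry holds any of these 6 symbols was taken, which gave 6 of 41345 probe sets in all, 3 for each locus. On this array a probe set stands for a whole transcript cluster. Both probe sets of *Mir1a-2* are listed for *Mir1b* as well, so the 2 genes cannot be told apart, and the probe sets are called brighter and dimmer by their levels. Hearts of mice at postnatal day 2 on a mixed 129 x C57BL/6 background were profiled on Affymetrix Mouse Gene 2.0 ST arrays, with 3 arrays for each of 3 genotypes. Wild-type hearts carry 2 intact alleles at each *miR-1* gene. The *miR-1-1* null hearts carry 0 intact *miR-1-1* and 2 intact *miR-1-2* alleles. Double-heterozygous hearts carry 1 intact and 1 deleted allele of *miR-1-1* and likewise of *miR-1-2*, so that both mutant genotypes keep 2 of 4 *miR-1* alleles but from different loci. In the targeted *miR-1-1* allele, the precursor sequence was replaced by a floxed neomycin resistance gene under a pGK promoter. The *miR-133a* precursor of the same locus was left in place, and the *miR-1-2* allele came from an existing targeted line.

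*miR-1* and *miR-133a* are made together in heart and skeletal muscle, where a long primary transcript is cut in the nucleus into hairpin precursors and these are cut again in the cytoplasm to mature microRNAs. A mature microRNA lowers the stability and translation of messenger RNAs that pair with its seed, and *miR-1* and *miR-133a* are known for their roles in muscle differentiation, proliferation and contractile gene expression. An array of this kind measures amplified total RNA, so a probe set at a microRNA gene reads the primary transcript or precursor and does not measure the mature microRNA by itself.

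The upstream end of the host transcript and the precursor arm that could be matched are shown. The arm lies inside the deleted precursor and the upstream window lies before it. The positions of the probe sets are not shown. The window around the start of *Mir1a-1hg* (RefSeq, GRCm38.p6, chr2:180385354-180385653, plus strand) holds 250 bases before and 50 after the annotated start, and its capitals mark 2 E-boxes (CANNTG, the core bound by MyoD and Myogenin) and a TATA motif (TATATAA).
*Mir1a-1hg* start window: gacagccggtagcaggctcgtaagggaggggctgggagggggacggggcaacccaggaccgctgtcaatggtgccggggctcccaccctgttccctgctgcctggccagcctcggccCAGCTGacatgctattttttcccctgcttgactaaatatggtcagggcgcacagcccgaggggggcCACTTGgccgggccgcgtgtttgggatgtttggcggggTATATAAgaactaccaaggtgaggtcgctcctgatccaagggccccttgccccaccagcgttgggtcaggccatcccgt
The E-boxes begin 133 and 67 bases before the start and the TATA motif 29 bases before it. Motifs were searched on both strands. An E-box was in 72.3% of 32851 such windows of the genome and the TATA motif in 3.24%. The strict CArG box bound by SRF (CCWWWWWWGG), the MEF2 site (YTAWWWWTAR) and the GATA motif AGATAA had no match in these letters. They matched in 1.63%, 3.19% and 11.2% of all windows. Here W is A or T, Y is C or T and R is A or G. Looser forms were not searched. The bases ctaaatatgg in the window differ from the strict CArG box only by a t in place of a c. The GC content of the window was 64.3%, and the median of all windows was 52.7%.

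Of the microRNAs at both loci, the 5p arm of *Mir1a-1*, which lies inside the deleted precursor, was matched to RefSeq (GRCm38.p6, chr2:180389057-180389079, plus strand). It is set beside the same arm of *Mir206*, a skeletal muscle member of the *miR-1* family (chr1:20679017-20679039, plus strand), with bases 2 to 8, the seed position of each arm, in capitals. The arms shown are not the main mature *miR-1* and *miR-206*, which come from the 3p arms, are known to share a seed and are not shown here.
mmu-miR-1a-1-5p: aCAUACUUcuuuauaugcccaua
mmu-miR-206-5p: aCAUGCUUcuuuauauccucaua
The arms have 23 bases each and 20 of these are the same. Counted from 1 at the 5′ end of the *miR-1a-1* arm, the substitutions are A5G, G17C and C19U, of which 1 lies in bases 2 to 8, a difference of these 5p arms only.

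The 9 arrays correlated with each other at Pearson's r of 0.959 to 0.974 over all probe sets. All 7 cardiomyocyte markers (such as *Myh6* and *Tnnt2*) stood at log2 levels of 8.05 to 11.6 in every array. Of 10 skeletal muscle markers, which matter here because skeletal muscle makes the same microRNAs, 3 were above the near-background level in every array, 2 in no array, and the whole list ranged from 0.88 to 5.17. That level was set at 1.86, the upper quartile of 1405 olfactory and vomeronasal receptor probe sets, genes not expected in heart. Of 3 lung, 3 brown fat and 3 liver markers, 2, 2 and 1 were above it in every array. The lung gene *Scgb1a1* reached 6.51, with means of 3.61 in wild-type, 1.92 in null and 1.77 in double-heterozygous hearts. A part of other tissue in the samples was not tested. *Xist*, the RNA of the inactive X chromosome in female cells, was at 7.74 in wild-type replicate 1, at 8.31 in double-heterozygous replicate 7 and at 1.22 to 1.96 in the other 7 arrays. Both high arrays are thus outside the null group, and sex was tested as a part of the results below only by leaving out those 2 arrays and by a fit with the level of *Eif2s3y*, a Y-linked gene, as a covariate. The labels give no more of the animals, so the spread behind each p-value is that between samples and may be technical. In whole hearts, fewer cells of a type and less RNA per cell cannot be told apart.

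*Mir1a-1*, the gene deleted in null hearts, was too dim to check the genotypes. Its log2 levels were 1.29, 1.85 and 2.21 in wild-type hearts, 1.06, 0.95 and 1.29 in null hearts, and 1.52, 1.46 and 0.92 in double-heterozygous hearts. Wild-type replicate 3 was the highest array and was the only array above the near-background level, and the groups overlapped in every comparison. The means were 1.78 ± 0.47, 1.10 ± 0.17 and 1.30 ± 0.33 (SD, n = 3 arrays each). Null hearts had a log2 fold change of -0.68 (95% interval -1.27 to -0.10, adjusted p from limma over all probe sets 0.897). In double-heterozygous hearts it was -0.48 (-1.07 to 0.10), an interval that holds both no change and the loss of 1 of 2 alleles (-1).

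*Mir1a-1hg*, the long RNA from which *miR-1-1* and *miR-133a-2* are cut, was higher in both mutant genotypes. Its log2 levels were 6.07, 5.82 and 5.62 in wild-type hearts. They were 7.22, 7.36 and 6.71 in null hearts and 6.79, 6.90 and 7.18 in double-heterozygous hearts. All 6 mutant arrays stood above all 3 wild-type arrays, with a gap of 0.64 between null replicate 6 and wild-type replicate 1, whereas the mutant genotypes overlapped each other. The rise was 2.39-fold in null hearts (95% interval 1.74 to 3.29, adjusted p from limma 0.457) and 2.18-fold in double-heterozygous hearts (1.59 to 2.99, adjusted p 0.156). Both passed the thresholds that the study set for its arrays (p below 0.0025 before adjustment, and a fold over 1.5 or under 0.5), and neither passed an adjusted p of 0.05. Between the mutant genotypes the log2 difference was -0.14 (-0.60 to 0.32), double-heterozygous against null. The probe set cannot tell a transcript of an intact allele from one of a targeted allele. Whether the floxed neomycin gene was still in the targeted allele of these mice is not stated for these samples, and its part in the levels was not tested.

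*Mir133a-2*, the *miR-133a* precursor downstream of *miR-1-1*, was lower in null hearts than in both other genotypes. Its probe set lies outside the deleted sequence and does not check the deletion. Its log2 levels were 5.63, 6.38 and 5.45 in wild-type hearts and 4.51, 3.79 and 3.07 in null hearts. In double-heterozygous hearts they were 6.32, 5.33 and 5.87, inside or close to the wild-type range. Every null array stood below every other array, by at least 0.82, and null replicate 6 was the lowest. The level in null hearts was 0.245 times that of wild-type hearts (95% interval 0.127 to 0.474, log2 fold change -2.03, SE 0.41). It passed the study's thresholds (p from limma 0.00112, adjusted p 0.665) and was the 24th most negative log2 fold change of all 41345. The call was lost without wild-type replicate 1 (-2.12), wild-type replicate 2 (-1.75), null replicate 5 (-2.03) or null replicate 6 (-1.67), each fitted with fewer arrays and with the direction kept. It was lost as well without both *Xist*-carrying arrays (-2.12). In double-heterozygous hearts the level was 1.02 times that of wild-type hearts (0.526 to 1.96), an interval that does not reach 0.5. Tested directly, *Mir133a-2* was 4.14-fold higher in double-heterozygous than in null hearts (2.14 to 8.00, p from limma 0.00104, adjusted p 0.340). That call was lost without null replicate 5 (log2 fold change 2.05), null replicate 6 (1.69), double-heterozygous replicate 7 (1.81) or replicate 9 (2.04), and without both *Xist*-carrying arrays (1.81).

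**Figure D1:**
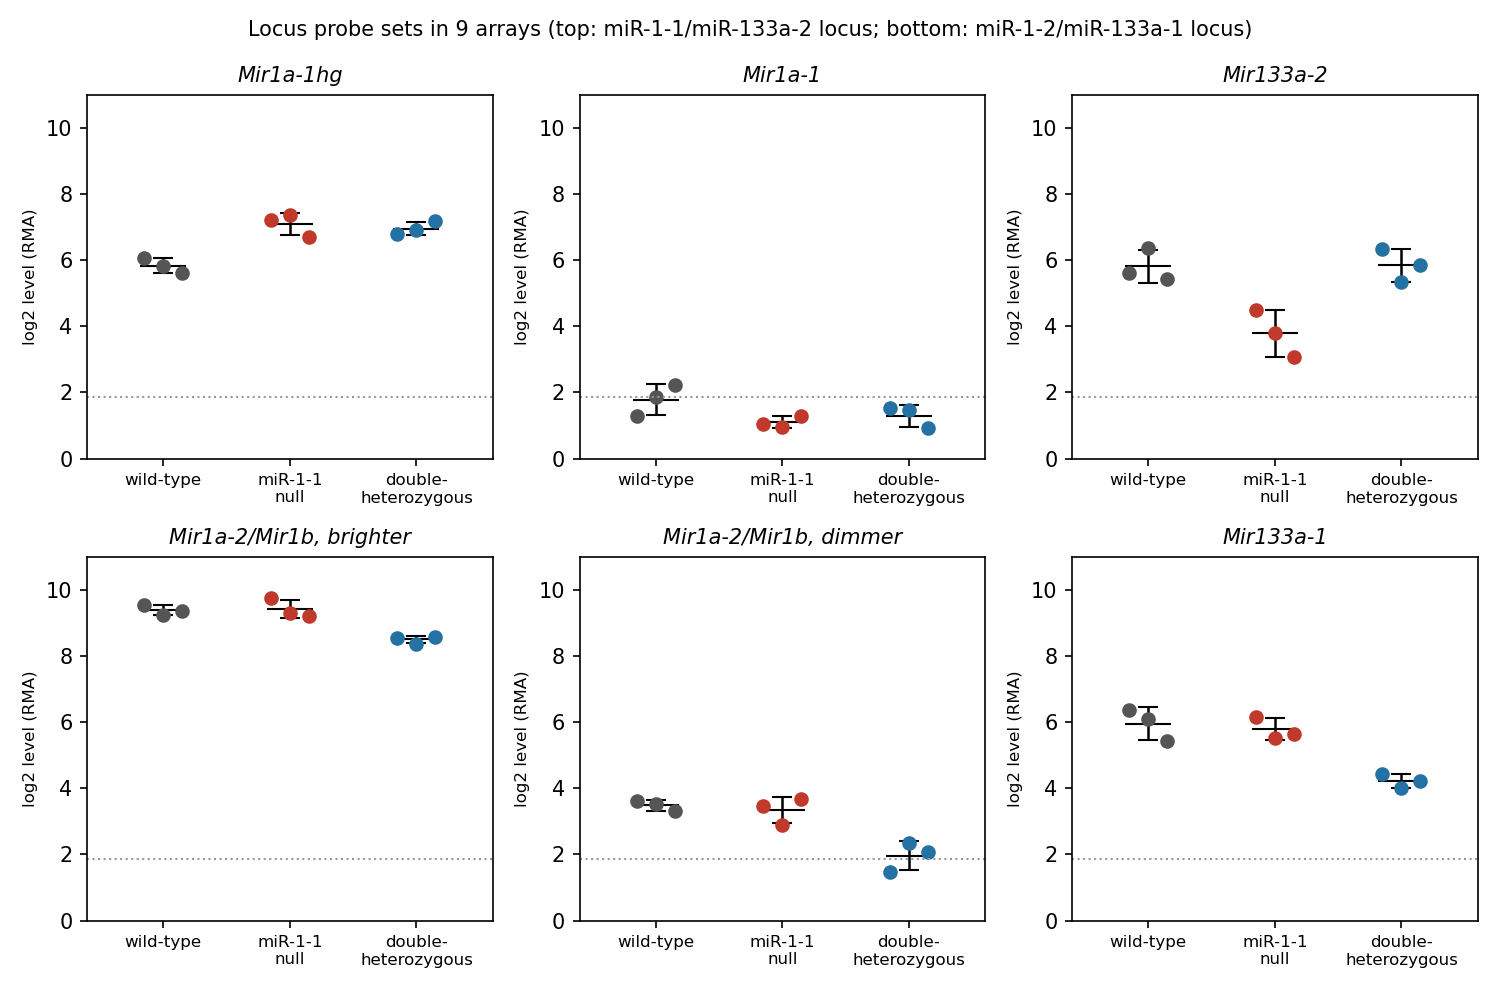
Log2 RMA level (y axis) of each locus probe set by genotype (x axis), with 1 point per array, bars for the mean ± SD (n = 3) and a dotted line at the near-background level of 1.86. *Mir1a-1hg* is higher in both mutants, *Mir133a-2* lower in null hearts, and the 3 probe sets of the other locus lower in double-heterozygous hearts.

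The 3 probe sets of the *miR-1-2* locus were lower in double-heterozygous hearts, where 1 *miR-1-2* allele is deleted, and in null hearts, where both *miR-1-2* alleles are intact, they overlapped the wild-type arrays. The brighter probe set of *Mir1a-2* and *Mir1b*, the genes of the second *miR-1* precursor and its antisense counterpart, had log2 levels of 9.54, 9.25 and 9.38 in wild-type hearts. Its levels were 9.75, 9.30 and 9.22 in null hearts and 8.56, 8.37 and 8.58 in double-heterozygous hearts. Every double-heterozygous array was below every other array. The level was 0.542 times that of wild-type hearts (0.422 to 0.695, p from limma 0.000449, adjusted p 0.156), short of the fold limit of 0.5. Against null hearts it was 0.529 times (0.412 to 0.678, adjusted p 0.238). Without null replicate 6, the lowest null array, the log2 fold change against null hearts was -1.02 and passed both thresholds.

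The dimmer probe set of *Mir1a-2* and *Mir1b* was lowest in double-heterozygous hearts too, near the bottom of the scale. Its log2 levels were 3.63, 3.52 and 3.30 in wild-type hearts, 3.46, 2.90 and 3.68 in null hearts, and 1.48, 2.34 and 2.06 in double-heterozygous hearts. All 3 double-heterozygous arrays were below the others, and replicate 7 lay below the near-background level. The level fell to 0.348 times wild-type (0.230 to 0.528, adjusted p from limma 0.152) and to 0.383 times null (0.253 to 0.581, adjusted p 0.295), past the study's thresholds in both. The call against null hearts was lost without null replicate 4 (log2 fold change -1.33) or null replicate 6 (-1.22). Without both *Xist*-carrying arrays, the log2 fold changes were -1.21 against wild-type and -1.14 against null hearts, and neither passed.

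*Mir133a-1*, the *miR-133a* precursor downstream of *miR-1-2*, was lower in double-heterozygous hearts than in both other genotypes. Its log2 levels were 6.37, 6.09 and 5.42 in wild-type hearts, 6.16, 5.54 and 5.66 in null hearts, and 4.43, 4.00 and 4.22 in double-heterozygous hearts. The highest double-heterozygous array was 0.99 below the lowest wild-type array and 1.11 below the lowest null array. The level fell to 0.299 times wild-type (95% interval 0.196 to 0.456, p from limma 0.00016, adjusted p 0.123) and to 0.337 times null (0.221 to 0.514, adjusted p 0.238). Both passed the study's thresholds, and they did so without any single array as well. In null hearts the log2 fold change from wild-type was -0.17 (-0.78 to 0.44).

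Counted over the members, 2 of 6 probe sets passed the study's thresholds in null against wild-type hearts, 1 higher and 1 lower, where 0.198% of all probe sets passed. In double-heterozygous against wild-type hearts 3 of 6 passed, 1 higher and 2 lower, against 0.791% of all. In double-heterozygous against null hearts 3 of 6 passed, 1 higher and 2 lower, against 0.438% of all. Groups of arrays did not overlap for 2, 4 and 4 of the 6 in the same order, against 8.77%, 13.6% and 10.5% of all probe sets. Each of these cases had an exact permutation p of 0.1 (two-sided), and 3 against 3 arrays allow none smaller. At a Benjamini-Hochberg adjusted p under 0.05 from limma, 0 of 6 were called in each comparison, against 0.00726%, 0.00484% and 0.00242% of all probe sets, and at an unadjusted p under 0.05 it was 3, 4 and 4 of 6, against 5.52%, 10.2% and 7.12% of all. The methods' t-test gave 0 of 6 at the adjusted threshold too, and 2, 4 and 4 of 6 at an unadjusted p under 0.05. The comparisons share arrays, so their counts are not independent of each other.

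**Figure D2:**
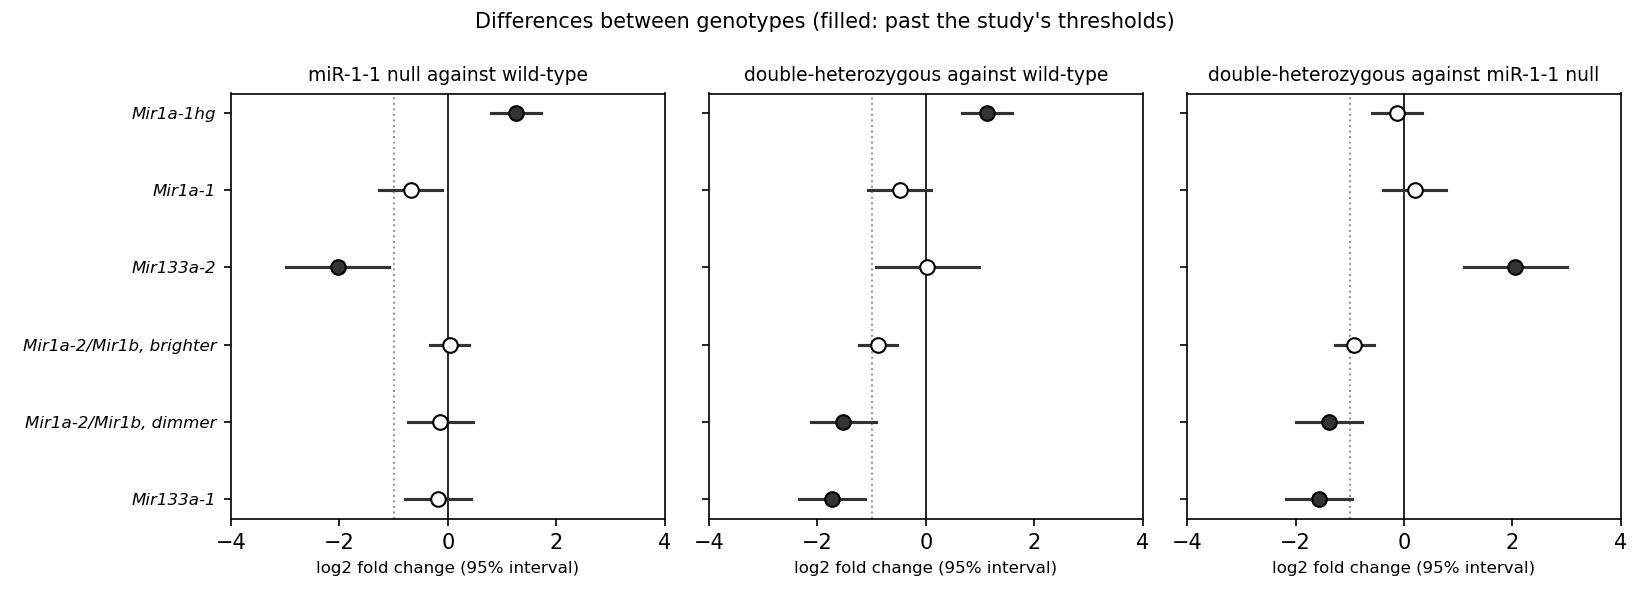
Log2 fold change (x axis) of the 6 locus probe sets (rows) with 95% intervals from limma in the 3 comparisons. Filled points are past the study's thresholds. The dotted line at -1 is the loss of 1 of 2 alleles for the deleted *miR-1* precursors, and only a reference for the other probe sets. *Mir133a-1* in double-heterozygous against wild-type hearts lies wholly below that line, and *Mir133a-2* in the same comparison wholly above it. In double-heterozygous against null hearts the interval of *Mir133a-1* holds that line.

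In double-heterozygous against wild-type hearts, 1 of 2 *miR-1* alleles is left at either locus. The interval of the log2 fold change held -1 for *Mir1a-1*, which is near background, and for both *Mir1a-2/Mir1b* probe sets. For *Mir133a-1*, *Mir133a-2* and *Mir1a-1hg* the value -1 is only a reference and no allele loss, since only the *miR-1* precursors are deleted. The interval of *Mir133a-1* (-2.35 to -1.13) lay below -1. That of *Mir133a-2* (-0.93 to 0.97) and that of *Mir1a-1hg* (0.67 to 1.58) lay above it. Against null hearts, which also keep 2 intact *miR-1-2* alleles, the *Mir133a-1* interval in double-heterozygous hearts (-2.18 to -0.96) held -1. The *miR-133a* precursors, whose sequences are intact in every genotype, were also compared directly within arrays. The log2 difference *Mir133a-2* minus *Mir133a-1* was -0.74, 0.29 and 0.03 in wild-type hearts, -1.66, -1.75 and -2.58 in null hearts, and 1.89, 1.33 and 1.65 in double-heterozygous hearts. The 3 genotypes did not overlap, and null and double-heterozygous arrays lay on opposite sides of the wild-type arrays. The mean difference moved by -1.86 in null and by 1.76 in double-heterozygous hearts, each with an exact permutation p of 0.1. A value of 0 on this scale does not mean equal amounts, since probe sets differ in brightness.

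Host and precursor signals of the *miR-1-1* locus moved apart. *Mir1a-1hg* minus *Mir133a-2* was 0.44, -0.56 and 0.17 in wild-type hearts, 2.71, 3.57 and 3.64 in null hearts, and 0.47, 1.57 and 1.31 in double-heterozygous hearts. The lowest double-heterozygous array was close to the highest wild-type array, while all null arrays stood above both genotypes. The mean difference rose by 3.29 in null and by 1.10 in double-heterozygous hearts, and changed by -2.19 from null to double-heterozygous hearts, each with no overlap (exact permutation p = 0.1). At the other locus, the brighter *Mir1a-2/Mir1b* probe set minus *Mir133a-1* was 3.17, 3.16 and 3.96 in wild-type, 3.59, 3.76 and 3.57 in null and 4.13, 4.37 and 4.36 in double-heterozygous hearts. It was higher by 0.86 in double-heterozygous than in wild-type hearts with no overlap (exact permutation p = 0.1), and by 0.21 in null hearts with overlap (exact permutation p = 0.4). The brighter minus the dimmer probe set differed by 0.64 between double-heterozygous and wild-type hearts, with overlap (exact permutation p = 0.2). Whether both fell equally far cannot be read from this, since the dimmer was near background in double-heterozygous hearts. These differences were chosen after the levels had been seen.

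**Figure D3:**
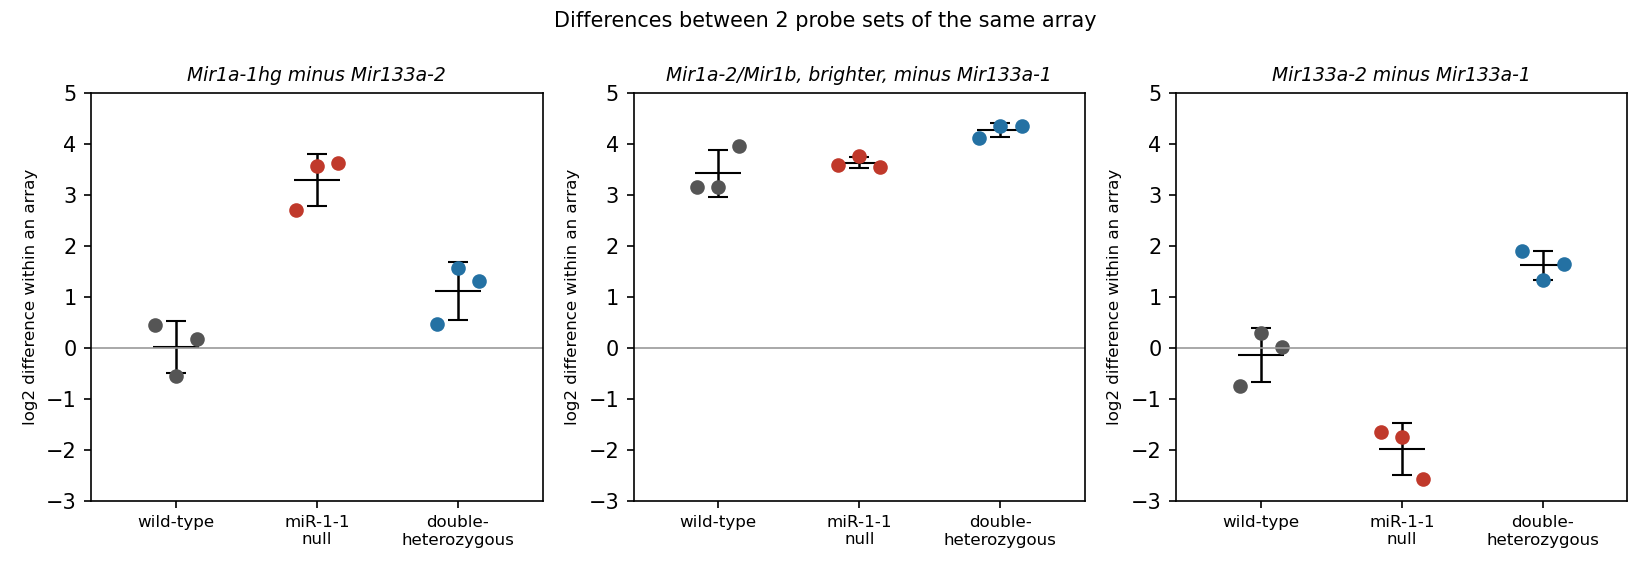
Log2 difference between 2 probe sets of the same array (y axis) by genotype (x axis), with 1 point per array and bars for the mean ± SD (n = 3). *Mir133a-2* minus *Mir133a-1* separates the 3 genotypes, with null arrays at -2.58 to -1.66 and double-heterozygous arrays at 1.33 to 1.89.

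Across the 9 arrays, which share the genotypes, the 3 probe sets of the *miR-1-2* locus varied together, with Pearson's r of 0.947 between the brighter *Mir1a-2/Mir1b* probe set and *Mir133a-1*, 0.846 between the brighter and the dimmer, and 0.876 between the dimmer and *Mir133a-1*. At the *miR-1-1* locus r was -0.422 between *Mir1a-1hg* and *Mir133a-2*, -0.865 between *Mir1a-1hg* and *Mir1a-1* and 0.415 between *Mir1a-1* and *Mir133a-2*, of which the last 2 rest on the near-background levels of *Mir1a-1*. Among 2146 named genes that varied by an SD of at least 0.3 over the arrays, those most like *Mir1a-1hg* were *Mpp7* (r = 0.956), *Acta2* (0.920) and *Cnn1* (0.920), the smooth muscle actin and calponin genes. The mean log2 level of *Cnn1* was 5.88 in wild-type, 7.28 in null and 7.40 in double-heterozygous hearts, and that of *Acta2* was 8.87, 9.66 and 9.60. *Acta2* and *Cnn1* belong to the 4 smooth muscle markers, of which *Tagln* stood at 4.71, 5.03 and 4.92 and *Myh11* at 4.15, 4.07 and 4.07 in the same order, and a part of smooth muscle content in the *Mir1a-1hg* values was not tested. Most like *Mir133a-2* were *Slc26a10* (0.926), *Ocel1* (0.913) and *Ksr1* (0.863). Most like the brighter *Mir1a-2/Mir1b* probe set were *Rnf122* (0.928), *Tfdp2* (0.913) and *Golm2* (0.903), and most like the dimmer *Ubald1* (0.923), *Klhl31* (0.916) and *Pdk4* (0.916), the kinase that inhibits pyruvate dehydrogenase. Most like *Mir133a-1* were *Klhl38* (0.949), *Polr2k* (0.941) and *Golm2* (0.938). These are descriptions over arrays of the 3 genotypes.

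The genes beside the loci were measured to see how far the differences extended along the chromosome. Of 16 named neighbours of the *miR-1-1* locus, 8 on each side, 0 passed the study's thresholds in any comparison by limma. Of all probe sets, 0.198%, 0.791% and 0.438% passed in null against wild-type, double-heterozygous against wild-type and double-heterozygous against null hearts. An unadjusted p under 0.05 was found for 0, 1 and 0 neighbours in that order, against 5.52%, 10.2% and 7.12% of all probe sets. With shares this low, 0 calls among 16 genes cannot show how far a difference extends. Their log2 fold changes lay between -0.41 and 0.22 in null and between -0.40 and 0.11 in double-heterozygous hearts. The nearest gene before the host transcript, *Gata5os*, was at -0.13 and -0.22, and the nearest after it, *Slco4a1*, at 0.22 and 0.06, with mean levels of 1.94 and 1.69. Of 17 genes at the *miR-1-2* locus, 0 passed either, with 1, 0 and 0 at an unadjusted p under 0.05, against the same shares of all probe sets. *Mib1*, the ubiquitin ligase gene that overlaps the microRNAs, was at -0.0072 in null and -0.17 (SE 0.13) in double-heterozygous hearts, where *Mir133a-1* was at -1.74. *Gata6*, a cardiac transcription factor gene nearby, was at 0.13 and -0.09.

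**Figure D4:**
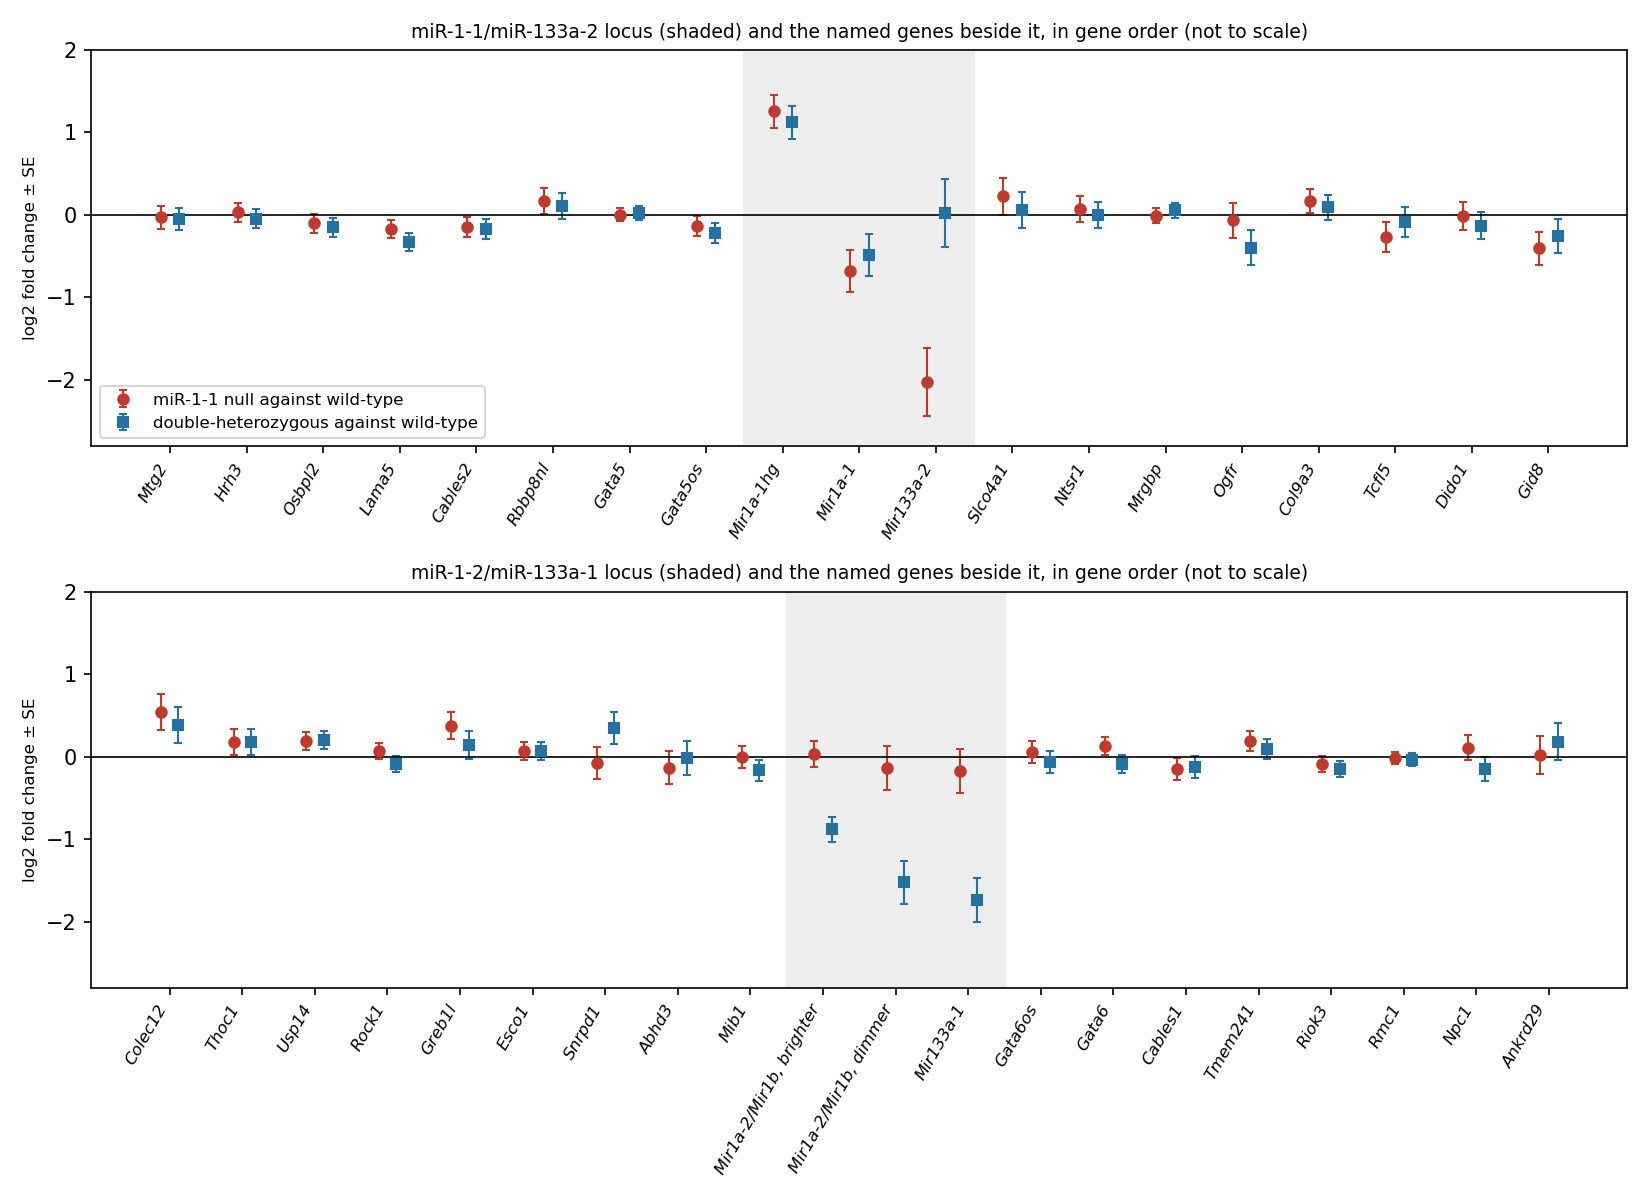
Log2 fold change ± SE against wild-type (y axis) of the locus probe sets (shaded) and of the named genes around them in gene order (x axis, not to scale), with circles for *miR-1-1* null and squares for double-heterozygous hearts. The neighbours lie between -0.41 and 0.54, and 5 of the 6 locus probe sets lie outside that range in at least 1 genotype at levels above background in wild-type hearts, while *Mir1a-1* is too dim to be read.

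Other muscle microRNAs were not called at the study's thresholds, but only *Mir208a* and *Mir208b* stood well above the near-background level. Of 6 listed, 5 had a probe set of their own and 0 passed in any comparison by limma. An unadjusted p under 0.05 was found for 1, 1 and 0, against 5.52%, 10.2% and 7.12% of all probe sets. Only 0.198%, 0.791% and 0.438% of all probe sets passed the study's thresholds. With shares this low, 0 calls among 5 microRNAs, or among the 5 host genes below, cannot show that they were unchanged. *Mir206*, whose arm is shown above, was at mean log2 levels of 1.02, 0.74 and 0.68 in the order wild-type, null, double-heterozygous, below the near-background level throughout. *Mir208a* and *Mir208b*, which lie in introns of the myosin heavy chain genes *Myh6* and *Myh7*, were at 4.35, 4.46 and 4.68 and at 4.94, 4.86 and 5.08. *Mir133b*, a further *miR-133* gene, was at 1.86, 2.01 and 1.98, close to the near-background level. *Mir499* was at 1.48, 1.47 and 1.65, below it. Of 5 host genes 0 passed, and *Myh7*, the slow myosin heavy chain, had log2 fold changes of -1.07 in null (adjusted p from limma 0.897) and -0.86 in double-heterozygous hearts (adjusted p 0.508). Of 490 microRNA probe sets other than those of both loci, 0 were called higher or lower in null hearts, 6 higher and 0 lower in double-heterozygous against wild-type hearts and 7 higher and 0 lower in double-heterozygous against null hearts, at the same thresholds. Of all probe sets, 0.198% were called in null against wild-type hearts. In those last 2 comparisons 0.653% and 0.394% of all were called higher, and 0.138% and 0.0435% lower.

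Genes that act on these transcripts were counted from listed sets. Of 16 regulators of the loci in muscle, 0 passed the study's thresholds in any comparison by limma, and 1, 3 and 1 had an unadjusted p under 0.05, as had 5.52%, 10.2% and 7.12% of all probe sets. The median log2 fold change was 0.0077 in null and -0.10 in double-heterozygous hearts, where all probe sets had medians of -0.0039 and -0.013. *Myod1*, the skeletal muscle master regulator, was at a low mean level of 2.93 in wild-type and 3.43 in null hearts, a log2 difference of 0.50 (adjusted p from limma 0.774). In double-heterozygous hearts *Mef2d* and *Srf*, which encode factors that bind muscle promoters, were at -0.41 and -0.46 (adjusted p from limma 0.367 and 0.403). Of 19 measured genes of microRNA processing and effector complexes, *Ddx5* alone passed. It did so in double-heterozygous against wild-type and against null hearts, where 0.791% and 0.438% of all probe sets passed. An unadjusted p under 0.05 from limma was found for 2, 5 and 3 of the 19 in the same order as above. The shares of all probe sets were 5.52%, 10.2% and 7.12%. *Ddx5* encodes a helicase of the nuclear complex that cuts primary transcripts. Its mean log2 level was 8.01 in wild-type, 8.05 in null and 8.74 in double-heterozygous hearts, a rise of 0.72 against wild-type (SE 0.15, adjusted p from limma 0.178) and of 0.69 against null hearts (adjusted p 0.380). The related helicase gene *Ddx17* was at 0.41 in double-heterozygous and 0.25 in null hearts (adjusted p from limma 0.262 and 0.897). The list's medians were -0.03 in null and -0.05 in double-heterozygous hearts.

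Reported targets of both microRNAs were read in the same fit. Of 23 measured targets of *miR-1* in muscle, 0 passed in any comparison by limma, with 1, 2 and 0 at an unadjusted p under 0.05. Their median log2 fold change was 0.05 in null and 0.02 in double-heterozygous hearts, with 16 and 12 of 23 above 0, where 49.0% and 47.4% of all probe sets were above 0. *Gja1*, the main gap junction gene of working heart muscle, was at 0.38 in null hearts (adjusted p from limma 0.897), and *Mylk*, the gene of myosin light chain kinase, at -0.27 in double-heterozygous hearts (adjusted p 0.343). Of 19 measured targets of *miR-133a*, 0 passed either, with 0, 2 and 1 at an unadjusted p under 0.05, shares near or below those of all probe sets (5.52%, 10.2% and 7.12%). Their median was -0.0028 in null hearts, where *Mir133a-2* was lower, and -0.14 in double-heterozygous hearts, where *Mir133a-1* was lower, with 9 and 3 of 19 above 0. In double-heterozygous hearts *Pgam1*, a glycolytic enzyme gene, was at 0.54 (adjusted p from limma 0.386). *Srf*, a target on this list as well, went the other way, at -0.46 (adjusted p from limma 0.403).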

How the data were processed

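Hearts of 3 genotypes were profiled with 3 arrays each. Total RNA was isolated with TRIzol, cleared of genomic DNA, amplified with the NuGEN Ovation Pico system and hybridized to the arrays. The deposited values are log2 levels of each probe set from RMA, which corrects background, equalizes the distributions of the arrays and summarizes probes by median polish, so a change shared by all genes would not be seen. RMA and Affymetrix Power Tools 1.12.0 are named in the submitters' processing notes. The array's genome build was not given in the sources used here. Probe sets were named through the platform's gene table, which gave 23521 probe sets with 1 gene symbol, 1820 with several and 16004 with none here. Sequences are from RefSeq (GRCm38.p6).

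Values were used as deposited, without a filter on dim probe sets. All 41345 probe sets of the 9 arrays were fitted with limma 3.58.1 (lmFit, contrasts.fit, eBayes; R 4.3.3) with a mean per genotype and 3 contrasts, and p-values were adjusted over all of them with Benjamini-Hochberg. Intervals are 95% intervals of limma and are not adjusted. Exact permutation tests of single values were two-sided. The fit was tested on simulated data. Figures were drawn with matplotlib 3.10.9 (Python 3.11.15). No pair of arrays held more than 6.92% equal values (tolerance 1e-06), so none was counted as a repeat. The number of arrays limits the precision. The probe sets described and the lists were chosen with earlier results of these data known. Named genes are the members, list genes past the study's thresholds or among the 2 with the smallest p of a list in a comparison, neighbours, and the 3 genes most like each member. *Gata5os*, *Slco4a1*, *Gata6*, *Mir208a*, *Mir208b*, *Mir133b*, *Tagln*, *Myh11* and *Scgb1a1* were added after their values were seen. Alternatives covered the arrays in the fit, the moderation, the methods' t-test, filters, normalization, array weights, the level of *Eif2s3y* as a covariate, the fold limits and leaving out each array. Leaving out both *Xist*-carrying arrays and the within-array differences were chosen after seeing the data.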

Additional observations from a re-analysis of the deposited data

How the results depend on the processing

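Alternatives numbered 21, or 20 for *Mir1a-1*, which a filter on dim probe sets removes. The count of locus probe sets past the study's thresholds, 2 in null against wild-type hearts, was 1 with only the 6 arrays compared, with *Eif2s3y* as a covariate or without both *Xist*-carrying arrays, and 0 under the methods' t-test. In double-heterozygous against wild-type hearts the count of 3 was 0 under the methods' t-test, with 4 of 6 at an unadjusted p under 0.05, 2 without both *Xist*-carrying arrays and 4 with a lower fold limit of 1/1.5. In double-heterozygous against null hearts the count of 3 was 1 with only the 6 arrays compared, under the methods' t-test or without both *Xist*-carrying arrays, 2 with the covariate and 4 with that fold limit. Leaving out each array in turn gave 1 to 2, 3 to 3 and 2 to 3. *Mir133a-2* was called in 13 of 21 alternatives in null hearts (log2 fold change -2.39 to -1.67), *Mir1a-1hg* in 20 of 21 (1.13 to 1.45) and *Mir133a-1* in double-heterozygous hearts in 20 of 21 (-2.01 to -1.54). Some differences that were not called changed sign. *Mir133a-2* in double-heterozygous against wild-type hearts was at -0.024 after median centring, -0.074 without wild-type replicate 1, -0.16 without wild-type replicate 3, -0.22 without double-heterozygous replicate 7 (-0.22 to 0.30 over all arrays left out) and -0.32 without both *Xist*-carrying arrays. In null against wild-type hearts, *Mir133a-1* was at 0.031 without wild-type replicate 1 or both *Xist*-carrying arrays (-0.44 to 0.031). The brighter *Mir1a-2/Mir1b* probe set was at -0.034 if wild-type replicate 2 was left out and at -0.13 if null replicate 4 was (-0.13 to 0.14), and the dimmer at 0.084 without null replicate 5 (-0.30 to 0.084). Over all probe sets, the 82, 327 and 181 calls were 28 to 146, 128 to 385 and 28 to 237. The 3, 2 and 1 calls at the adjusted threshold were 0 to 4, 0 to 48 and 0 to 1. The cause was not tested. No paired analysis was possible because replicate numbers are not shared between genotypes. *Mir1a-1* and part of the dimmer probe set lie near background, which limits their fold changes.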
